A study of Homo sapiens with 136 samples.

Results

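The 40 genes described here are the mitotic genes of the G2/M part of the cell cycle: the cyclins and kinases that start mitosis, the spindle checkpoint, the kinetochore, the spindle motors and the machinery of cytokinesis. They were taken as a fixed list of symbols, and all 40 were found among the 25435 gene symbols of a table of raw counts. The table holds 68 libraries of each of 2 human pancreatic cancer cell lines, PANC-1 and AsPC-1, made with PLATE-Seq, a pooled 3' RNA sequencing method for cells grown in plates. Both lines derive from pancreatic ductal adenocarcinoma, and the drugs act on the cascade of RAF, MEK and ERK kinases. The question was which inhibitors of that cascade lowered the genes of G1/S without lowering the mitotic genes, with MCM2 to MCM7 as the G1/S reference.

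The treated groups received 1 of 14 kinase inhibitors together with 1 of 2 autophagy inhibitors, and the reference groups received the autophagy inhibitor alone. The ERK inhibitors were AZD0364, ravoxertinib, SCH772984 and ulixertinib. The MEK inhibitors were binimetinib, cobimetinib, refametinib, selumetinib and trametinib, and the RAF inhibitors were dabrafenib, GDC-0879, PLX8394, RAF709 and sorafenib. The autophagy inhibitors were Compound 19, an inhibitor of the lipid kinase Vps34 (called the Vps34 inhibitor here), and hydroxychloroquine, which blocks the lysosome. Each combination had 2 libraries per line and each autophagy inhibitor alone had 6, so that a drug had 4 libraries and its reference 12 in each line. Cells were treated for 24 h. Each drug was given at a concentration that alone left 80% of the cells viable after 48 h, and the concentrations themselves are not in the labels, so the drugs are set side by side and not tested against each other singly. Every group carried an autophagy inhibitor: untreated cells and kinase inhibitors without an autophagy inhibitor were not analysed here. The labels do not say whether the replicates were separate cultures, so the p-values measure the spread between wells, which may be technical.

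In cycling cells the genes of DNA replication are switched on by E2F factors at the G1/S boundary, and the mitotic genes are switched on later, in G2, by the MuvB complex with B-Myb and FOXM1. In resting cells both sets are held down by the DREAM complex, which reaches many mitotic genes through a promoter element called the cell cycle genes homology region (CHR), often beside CCAAT boxes bound by NF-Y. ERK signalling carries growth signals to cyclin D and so to the release of E2F, and the MCM proteins form the helicase that opens DNA at replication origins.

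Most promoters of these genes with an entry hold letters of the elements named above. Of the mitotic genes, 3 promoters are shown, 2 with both CHR and CCAAT letters and 1 with CCAAT letters alone, and that of MCM3 is shown as the G1/S reference. Promoters came from RefSeq (GRCh38.p14), 250 bases before to 50 after each gene's start, and were searched on both strands for the CHR letters TTTGAA, for CCAAT and for an E2F site, TTTGGCGC or TTTCCCGC. Entries were found for 33 of the 40 mitotic genes and for 4 of the 6 MCM genes. The CHR letters stood in 23 of 33 mitotic promoters (69.7%), in 0 of 4 MCM promoters and in 15.2% of 35116 promoters of all genes. CCAAT stood in 26 mitotic promoters (78.8%), in 3 of the 4 MCM promoters and in 34.6% of all promoters. CDC25C, CENPE and KIF2C held neither CHR nor CCAAT letters. The E2F letters stood in 2 mitotic promoters (6.1%), in 3 of the 4 MCM promoters and in 2.3% of all promoters. These are matches of letters, not measured binding. CDC20 (chr1:43358801-43358980, plus strand) and PLK1 (chr16:23678709-23678888, plus strand) hold CHR and CCAAT letters. KIF20A (chr5:138178932-138179111, plus strand) holds CCAAT letters and no CHR letters in this window. MCM3 (chr6:52284743-52284922, minus strand) holds an E2F site and CCAAT letters. Capitals mark the CHR, CCAAT and E2F letters on either strand in these 180-base stretches, written 5' to 3'.
CDC20: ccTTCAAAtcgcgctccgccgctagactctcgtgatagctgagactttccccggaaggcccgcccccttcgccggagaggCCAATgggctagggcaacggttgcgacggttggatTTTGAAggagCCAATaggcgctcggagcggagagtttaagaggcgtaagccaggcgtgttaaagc
PLK1: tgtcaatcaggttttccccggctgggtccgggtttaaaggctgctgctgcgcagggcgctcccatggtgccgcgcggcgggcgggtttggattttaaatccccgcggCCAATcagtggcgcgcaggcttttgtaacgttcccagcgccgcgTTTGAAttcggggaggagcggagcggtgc
KIF20A: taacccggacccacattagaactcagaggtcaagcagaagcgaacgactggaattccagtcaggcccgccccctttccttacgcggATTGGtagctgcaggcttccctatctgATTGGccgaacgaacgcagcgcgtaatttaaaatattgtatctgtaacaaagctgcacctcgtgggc
MCM3: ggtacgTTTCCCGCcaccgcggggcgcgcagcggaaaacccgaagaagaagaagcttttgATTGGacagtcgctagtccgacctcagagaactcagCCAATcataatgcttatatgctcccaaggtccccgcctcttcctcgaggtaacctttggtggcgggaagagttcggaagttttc

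The libraries held 1419228 to 5871860 counts, with medians of 3636445.5 in PANC-1 and 3351744.5 in AsPC-1. The 40 mitotic genes together drew 3726 to 23274 counts per library in PANC-1 and 2338 to 12737 in AsPC-1, and all 40 passed the filter on low counts in both lines. MCM2 had 0 to 5 counts per library and failed the filter, so MCM3 to MCM7 served as the reference. Epithelial markers summed to 335.65 to 848.05 CPM (a gene's counts per 1000000 counts of its library) in PANC-1 and to 2556.7 to 7722.65 CPM in AsPC-1. The epithelial adhesion gene CDH1 was at 0.0 to 4.52 CPM in PANC-1, where it is at or near 0, and at 8.47 to 86.4 CPM in AsPC-1. Immune markers reached at most 11.87 CPM and endothelial markers at most 2.97 CPM. Fibroblast markers summed to 23.38 to 116.78 CPM in PANC-1, where COL1A1 made up nearly all of it, and to 43.31 to 281.29 CPM in AsPC-1, where LUM did (43.07 to 274.89 CPM). The fibroblast genes COL1A2, DCN and PDGFRB reached at most 3.62 CPM in either line.

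In PANC-1 the 5 MEK inhibitors lowered the MCM genes while most mitotic genes did not pass the test. Against the autophagy inhibitors alone, 9 of the 40 mitotic genes were called lower and none higher, at an adjusted p under 0.05 (edgeR quasi-likelihood test, Benjamini-Hochberg adjusted over all genes). Over all 12627 genes tested, 10.6% were called lower and 7.9% higher. The median log2 fold change of the mitotic genes was -0.08, against -0.02 for all genes and -0.55 for MCM3 to MCM7, of which 4 of 5 were called lower. Fits within a single plate, as read from a code in the library titles, also treated the drugs of a class as replicates, here and below. They called 2 mitotic genes lower in plate A and 1 in plate B. With drugs of a class as replicates over both plates, 4 were called lower. In a bulk library, fewer cells in mitosis and less of a mitotic RNA per cell cannot be told apart. All comparisons within a line share the same 12 libraries of the autophagy inhibitors alone.

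HJURP, the chaperone that loads the centromere histone CENP-A, had the lowest adjusted p among the mitotic genes in that comparison. It had 33.2 to 60.4 CPM (median 43.2) over the 20 MEK inhibitor libraries, against 57.3 to 85.7 CPM (median 73.8) in the 12 libraries of the autophagy inhibitors alone. Of the 20 MEK inhibitor libraries, 19 lay below every library of the autophagy inhibitors alone. Its log2 fold change was -0.77 ± 0.07 (SE; edgeR quasi-likelihood test, adjusted p = 1.61e-11). MCM3, a helicase subunit, had 44.2 to 95.7 CPM (median 57.4) with MEK inhibitors, against 69.5 to 131.4 CPM (median 94.1) with the autophagy inhibitors alone, and 17 of the 20 libraries lay below all 12. Its log2 fold change was -0.68 ± 0.06 (edgeR quasi-likelihood test, adjusted p = 5.1e-12).

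CCNB1, cyclin B1, the activator of CDK1 at mitotic entry, did not pass. It had 137.5 to 228.9 CPM (median 203.6) with MEK inhibitors, against 165.7 to 235.9 CPM (median 201.4) with the autophagy inhibitors alone, and the ranges overlapped. The difference was -0.05 ± 0.05 on the log2 scale (edgeR quasi-likelihood test, adjusted p = 0.634). By role, the PANC-1 calls with MEK inhibitors were few. Among the 8 cyclins, entry kinases and their activators only CCNA2, cyclin A2, fell (-0.21 ± 0.06, edgeR adjusted p = 0.0143). Of the 7 checkpoint and anaphase-promoting complex genes, BUB3 (-0.28 ± 0.05) and MAD2L1 (-0.42 ± 0.09), both parts of the spindle checkpoint, fell. Of the 8 kinetochore and centromere genes, HJURP and SPC25, a subunit of the microtubule-binding NDC80 complex (-0.28 ± 0.06), fell. The spindle motor KIF11 and the microtubule depolymerase KIF2C changed by -0.24 and -0.19, both called. ECT2, which activates RhoA for the cleavage furrow (-0.45 ± 0.09, edgeR adjusted p = 0.000203), and the proliferation marker MKI67 (-0.38 ± 0.11, edgeR adjusted p = 0.0147) completed the 9. The chromosomal passenger genes did not pass: AURKB was at -0.24 (edgeR adjusted p = 0.0621) and BIRC5, survivin, at 0.01.

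**Figure D1:**
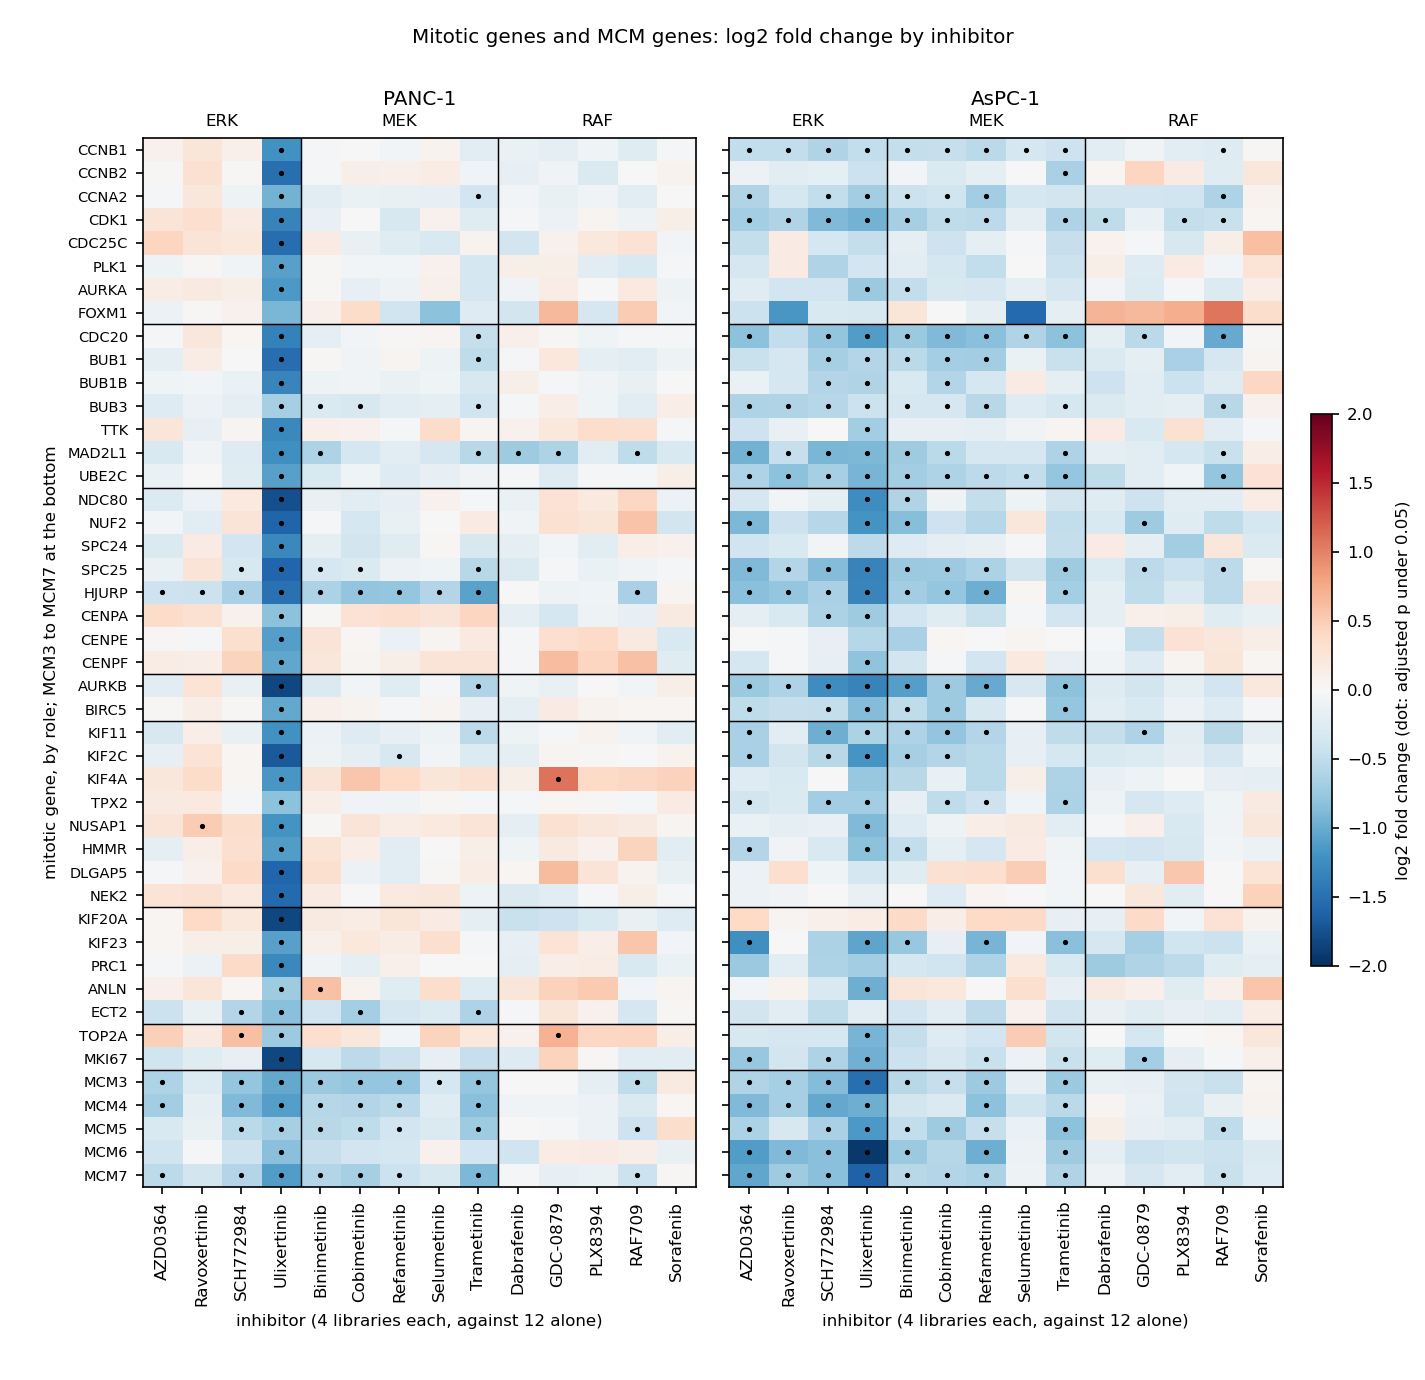
Log2 fold change of each mitotic gene, grouped by role, and of MCM3 to MCM7 (rows) with each of the 14 kinase inhibitors (columns: ERK, MEK and RAF inhibitors) against the autophagy inhibitors alone, in both lines; a dot marks an adjusted p under 0.05 (edgeR). In PANC-1 the ulixertinib column has a dot at 39 of 40 mitotic genes, and the trametinib column at 10.

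The ERK inhibitors as a class lowered 21 of the 40 mitotic genes in PANC-1 and raised none, against 8.68% of all genes lower and 5.45% higher. The median was -0.28 for the mitotic genes, -0.02 for all genes and -0.65 for MCM3 to MCM7, all 5 of which were called lower. Every one of the 7 checkpoint and anaphase-promoting complex genes was called lower, among them MAD2L1 at -0.47 ± 0.09, as were both passenger genes, AURKB at -0.48 ± 0.10 and BIRC5 at -0.21 ± 0.07. HJURP fell by 0.74 and SPC25 by 0.45 on the log2 scale. Without ulixertinib, an alternative chosen after that drug's values were seen, 3 mitotic genes were called lower and 4 higher, against 6.1% and 4.13% of all genes, with a median of 0.07. With all 4 drugs, plates A and B alone gave 2 and 1 called lower, with the drugs of the class as replicates. Treating drugs in that way over both plates gave 4.
The 3 lower were HJURP (-0.50), ECT2 (-0.38) and BUB3 (-0.19). The 4 higher were TOP2A, topoisomerase II alpha (0.42), NUSAP1, a spindle microtubule bundler (0.37), NEK2, the centrosome separation kinase (0.26), and CDK1 (0.25). The MCM genes were still lower without ulixertinib, with 4 of 5 called and a median of -0.49.

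Ulixertinib lowered nearly the whole mitotic list in PANC-1. It lowered 39 of the 40 genes and raised none, against 7.88% of all genes lower and 6.72% higher, and only FOXM1, a transcription factor of G2 genes, did not pass (-0.91 ± 0.43, edgeR adjusted p = 0.164). The median log2 fold change was -1.22 for the mitotic genes, -0.02 for all genes and -1.02 for MCM3 to MCM7, which fell by 0.66 to 1.12. Among the 39, 33 were called in each of 16 fits that left out replicates. Most of these fits, here and below, left out a library of an autophagy inhibitor alone and kept all libraries of the drug. Total counts of the 4 libraries were 2615351 to 4742047, and mitochondrial mRNA took 18.638% to 19.848% of them, within the 18.218% to 22.214% of the libraries of the autophagy inhibitors alone.

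At mitotic entry, CCNB1 had 53.6, 64.6, 144 and 119 CPM in the ulixertinib libraries (the Vps34 inhibitor's pair first, then that of hydroxychloroquine, here and for each drug that follows), against 165.7 to 235.9 CPM with the autophagy inhibitors alone. All 4 lay below the 12. Its log2 fold change was -1.21 ± 0.09 (edgeR quasi-likelihood test, adjusted p = 4.88e-14). CDK1, the mitotic kinase, had 16.5, 21.0, 47.2 and 59.8 CPM against 58.1 to 102.5 CPM, and 3 of its 4 values lay below all 12. PLK1, the polo kinase of spindle assembly, had 7.34, 19.9, 25.1 and 24.6 CPM against 24.2 to 48.6 CPM, with 2 of 4 below. It fell by 1.09 ± 0.19 on the log2 scale (edgeR quasi-likelihood test, adjusted p = 2.21e-05). NEK2 had 14.9, 22.2, 58.0 and 48.5 CPM against 72.9 to 120.3 CPM, all 4 below.

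CDC20, the activator of the anaphase-promoting complex whose promoter is shown above, had 30.7, 29.4, 46.2 and 66.8 CPM with ulixertinib, against 77.1 to 140.2 CPM with the autophagy inhibitors alone. It fell by 1.35 ± 0.11 on the log2 scale (edgeR quasi-likelihood test, adjusted p = 9.2e-14). At the kinetochore, SPC25 had 20.2, 27.2, 54.4 and 54.8 CPM against 77.3 to 133.8 CPM, a fall of 1.59 ± 0.10 (edgeR adjusted p = 1.76e-16). None of these ulixertinib values reached the lowest value of the autophagy inhibitors alone. NDC80, the namesake of that complex, had 10.9, 19.9, 19.0 and 15.6 CPM against 36.6 to 79.5 CPM, and HJURP had 17.6, 22.9, 33.1 and 37.2 CPM against 57.3 to 85.7 CPM.

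AURKB, the kinase of the chromosomal passenger complex that corrects wrong spindle attachments, had 4.45, 7.26, 15.4 and 22.9 CPM with ulixertinib, against 25.2 to 54.1 CPM. Its fall of 1.81 ± 0.18 was about the size of that of KIF20A, the kinesin that carries the passenger complex to the central spindle (-1.82 ± 0.18, edgeR adjusted p = 3e-11). KIF20A had 8.67, 22.2, 9.7 and 17.3 CPM with ulixertinib, against 37.6 to 58.3 CPM. KIF2C had 14.5, 17.2, 25.3 and 36.6 CPM against 55.6 to 85.4 CPM, again without overlap. The 39 called changes ran from -1.82 in KIF20A to -0.66 in BUB3. The weakest changes that passed were in BUB3 (-0.66 ± 0.08), ANLN, a scaffold of the contractile ring (-0.70 ± 0.20), and TOP2A (-0.73 ± 0.18). TOP2A had 99.8, 60.0, 154 and 131 CPM against 131.6 to 245.1 CPM, with 3 of 4 below.

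**Figure D2:**
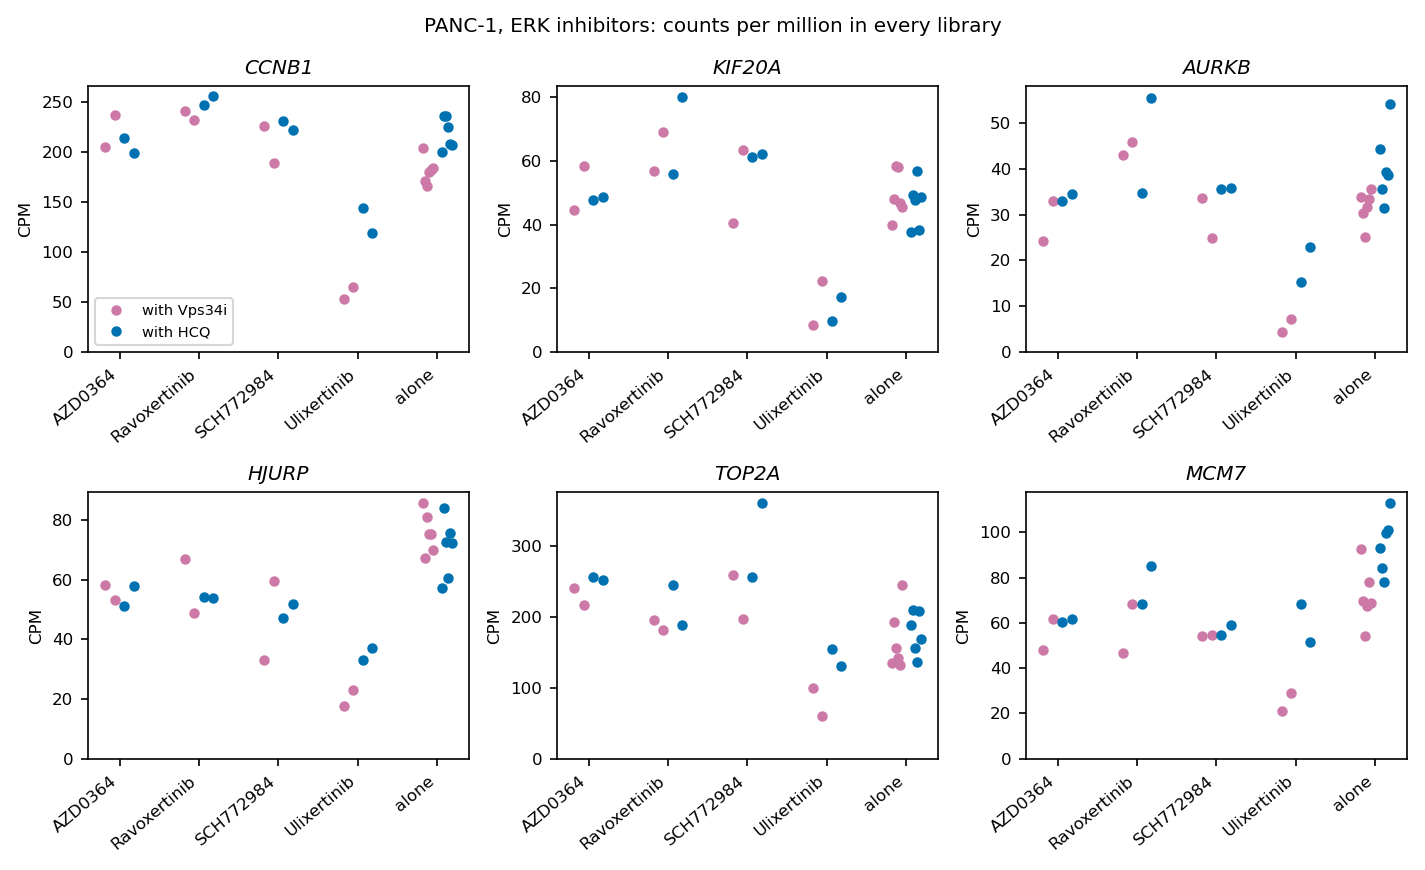
CPM (vertical axes) of 5 mitotic genes and MCM7 in every PANC-1 library of the 4 ERK inhibitors and of the autophagy inhibitors alone; points are libraries, coloured by autophagy inhibitor. For CCNB1, KIF20A, AURKB and HJURP the 4 ulixertinib points lie below all 12 points of the autophagy inhibitors alone, while those of SCH772984 reach into or above that range for CCNB1, KIF20A and TOP2A.

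SCH772984, another ERK inhibitor, lowered the MCM genes in PANC-1 and left the mitotic genes near the level of the autophagy inhibitors alone. It lowered 3 mitotic genes, HJURP, ECT2 and SPC25, against 4.01% of all genes, and raised 1, TOP2A, against 2.87% of all genes. The median was 0.04 for the mitotic genes and -0.58 for MCM3 to MCM7, with 4 of 5 called. CCNB1 had 226, 189, 230 and 222 CPM, all inside the 165.7 to 235.9 CPM of the autophagy inhibitors alone. KIF20A had 40.4, 63.4, 61.1 and 62.1 CPM against 37.6 to 58.3 CPM, with 3 of 4 above that range. MCM3 had 48.0, 47.6, 61.3 and 72.5 CPM against 69.5 to 131.4 CPM, with 3 of 4 below. TOP2A had 259, 197, 256 and 360 CPM against 131.6 to 245.1 CPM, a rise of 0.60 ± 0.17 (edgeR quasi-likelihood test, adjusted p = 0.016). That call held in 13 of 16 fits that left out replicates, and the weakest value was 0.44 without the second hydroxychloroquine combination replicate.
Over 8 genes that ERK signalling drives, such as DUSP6 and SPRY4, the median log2 fold change was -2.02 with SCH772984 and -1.64 with ulixertinib. All 8 were called lower with each drug. As the concentrations are not in the labels, these medians do not rank the drugs by ERK block. The part of ERK block in the mitotic changes was not tested.

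A drug was counted as lowering the MCM genes and sparing the mitotic genes where at least 4 MCM genes were called lower, under 25% of the mitotic genes were called lower, and their median change was under 0.5 of that of the MCM genes. In PANC-1, 4 of the 14 drugs met this rule: SCH772984, binimetinib, cobimetinib and refametinib. In AsPC-1, 1 did, ravoxertinib. The rule uses no G1/S genes other than the MCM genes. Of 37 other G1/S genes, ravoxertinib lowered 7 in AsPC-1 (median -0.40), beside 8 of the 40 mitotic genes (-0.30). In PANC-1 the 4 drugs lowered 17, 15, 13 and 9 of the 37 in the order given. SCH772984 met the rule in every PANC-1 fit that left out replicates. In those fits 2 to 4 drugs met it, with 2 without the first Vps34 inhibitor, the second Vps34 inhibitor or the first hydroxychloroquine combination replicate. The AsPC-1 count was 0 to 1, with 0 without the second replicate of either combination. Dropping the plate term, the replicate block, added trametinib in PANC-1.
Binimetinib lowered 4 mitotic genes in PANC-1 (3.96% of all genes lower), with a median of 0.00 against -0.56 for the MCM genes, cobimetinib lowered 4 (4.43%), at -0.06 against -0.58, and refametinib lowered 2 (3.49%), at -0.14 against -0.43.
HJURP was called with each of them, at -0.63, -0.79 and -0.77 in that order. Binimetinib also raised ANLN (0.59 ± 0.19, edgeR adjusted p = 0.0429; 3.31% of all genes higher), with 86.0, 168, 107 and 108 CPM against 48.3 to 103.4 CPM. That call held in 7 of 16 fits that left out replicates. Without the second Vps34 inhibitor combination replicate the change of ANLN was 0.34 and not called (edgeR adjusted p = 0.489).

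The single-drug counts in PANC-1 also moved by more than 1.5 times when replicates were left out. Binimetinib gave 1 to 4 and cobimetinib 2 to 4, both lowest without the first hydroxychloroquine combination replicate, and SCH772984 gave 1 to 3, lowest without the first Vps34 inhibitor combination replicate.

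Just outside the rule in PANC-1 stood trametinib, AZD0364 and the RAF inhibitor RAF709. Trametinib lowered 10 of the 40 mitotic genes, at the limit of the rule, against 7.49% of all genes, with medians of -0.20 for them and -0.78 for the MCM genes. Without the second hydroxychloroquine combination replicate it lowered 5. Its HJURP had 34.5, 40.8, 33.2 and 35.5 CPM against 57.3 to 85.7 CPM, a fall of 1.07 ± 0.13 (edgeR adjusted p = 1.51e-08). AZD0364 lowered 1 mitotic gene, HJURP (2.97% of all genes lower), at a median of -0.03, but 3 MCM genes were called. RAF709 lowered 2 mitotic genes (4.42% of all genes lower), at a median of -0.02 against -0.41 for the MCM genes, of which 3 were called. Ravoxertinib lowered 1 mitotic gene, HJURP, and raised 1 (2.57% and 1.8% of all genes), with an MCM median of -0.19. Its raised gene was NUSAP1, at 147, 125, 151 and 151 CPM against 71.6 to 145.1 CPM (0.51 ± 0.12, edgeR adjusted p = 0.00381). The call held in 15 of 16 fits that left out replicates. Selumetinib lowered 1, HJURP (2.06%), with a median of 0.03 and 1 MCM gene called.

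**Figure D3:**
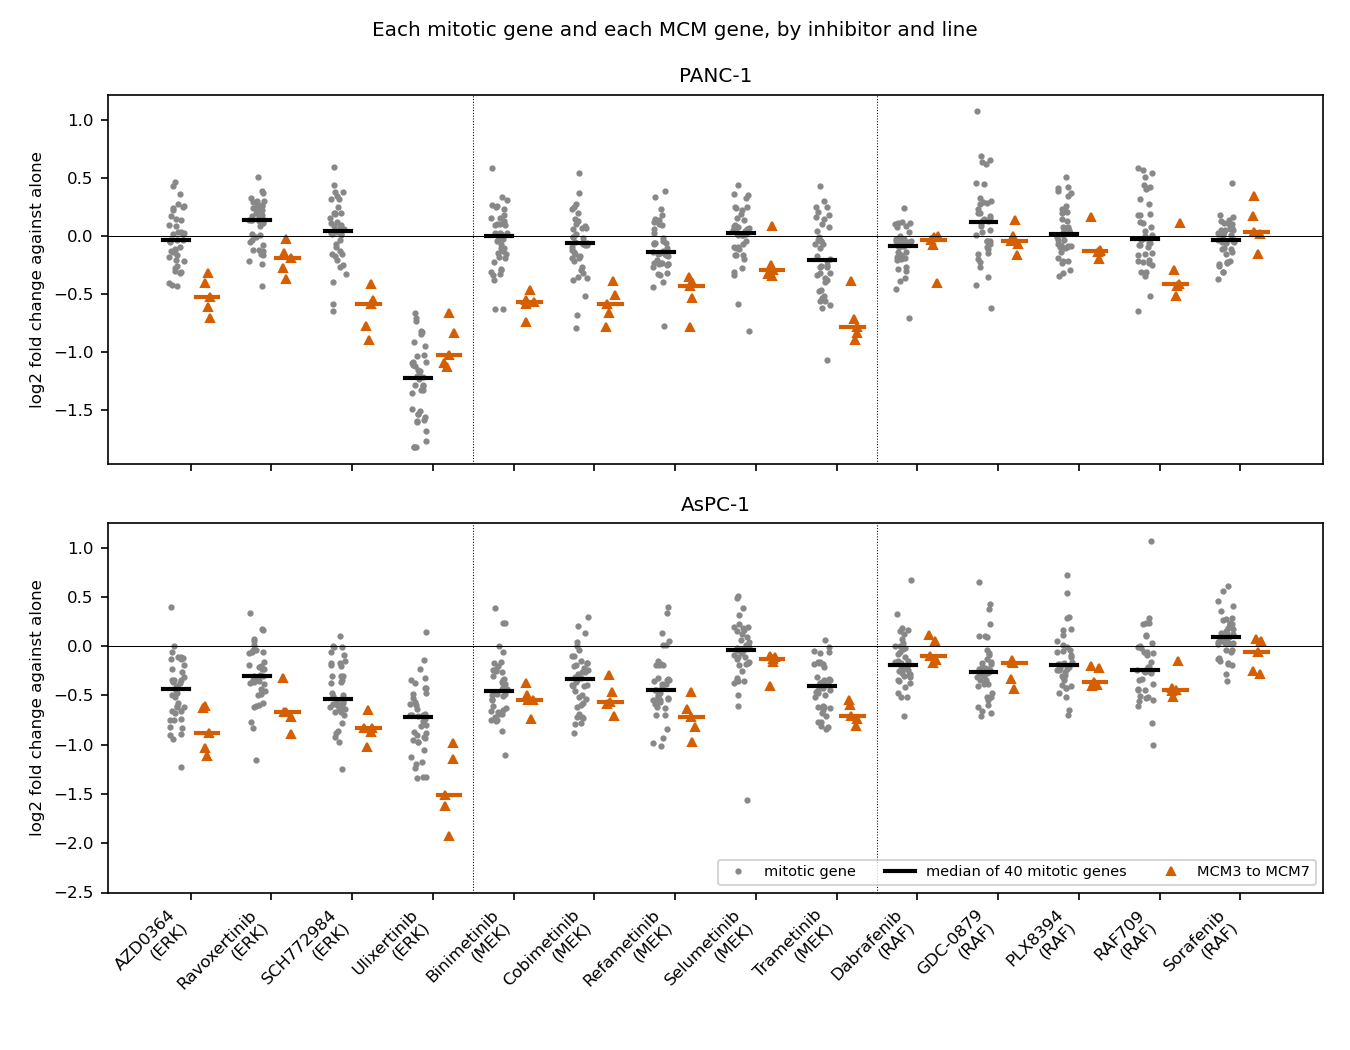
Log2 fold change (vertical axis) of the 40 mitotic genes (dots, black bar at their median) and of MCM3 to MCM7 (orange triangles with their median) for each of the 14 drugs, in both lines. In PANC-1 the mitotic median sits near 0 for SCH772984 (0.04) and below the MCM median for ulixertinib (-1.22 against -1.02), whereas in AsPC-1 ulixertinib has the mitotic median (-0.72) above the MCM median (-1.50).

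Counted over the 14 drugs singly, 28 of the 40 mitotic genes were called lower in PANC-1 with exactly 1 drug, which was ulixertinib for all 28, against 3.28% of all genes called lower with ulixertinib and no other drug. HJURP was called with 10 of the 14 drugs, MAD2L1 with 6, SPC25 with 5, and BUB3 and ECT2 with 4 each. Over all genes in PANC-1, 3.96% were called lower with 4 or more drugs and 0.863% with 10 or more. Of the MCM genes, MCM3 was called with 9 drugs, MCM7 with 8, MCM4 and MCM5 with 7 each and MCM6 with only 1. In AsPC-1, 18 of the 40 were called lower with 4 or more drugs, against 8.62% of all genes. CDK1 was called with 11, and CCNB1, CDC20, SPC25 and UBE2C with 10 each, while 2.73% of all genes were called lower with 10 or more. In AsPC-1, 11 of the 40 were called lower with no drug, against 79.2% of all genes. Among them were KIF20A, NEK2 and DLGAP5 and the kinetochore motor CENPE.

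The level of the whole list was also taken in single libraries. The mitotic score is the mean log2 CPM of the 40 genes, and it was 5.91 to 6.21 with SCH772984, 4.15 to 5.22 with ulixertinib and 5.8 to 6.16 with the autophagy inhibitors alone in PANC-1. All 4 ulixertinib libraries and none of the 4 of SCH772984 lay below the 12. The same mean over MCM3 to MCM7 was 5.19 to 5.59 with SCH772984, 4.55 to 5.55 with ulixertinib and 5.66 to 6.33 with the autophagy inhibitors alone, with all 8 drug libraries below. The mitotic score minus the MCM score was 0.56 to 0.73 with SCH772984, above all 12 libraries of the autophagy inhibitors alone (-0.26 to 0.37), and -0.4 to -0.17 with ulixertinib. Of the 20 MEK inhibitor libraries, 3 had a mitotic score below the 12 and 12 had an MCM score below them.

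**Figure D4:**
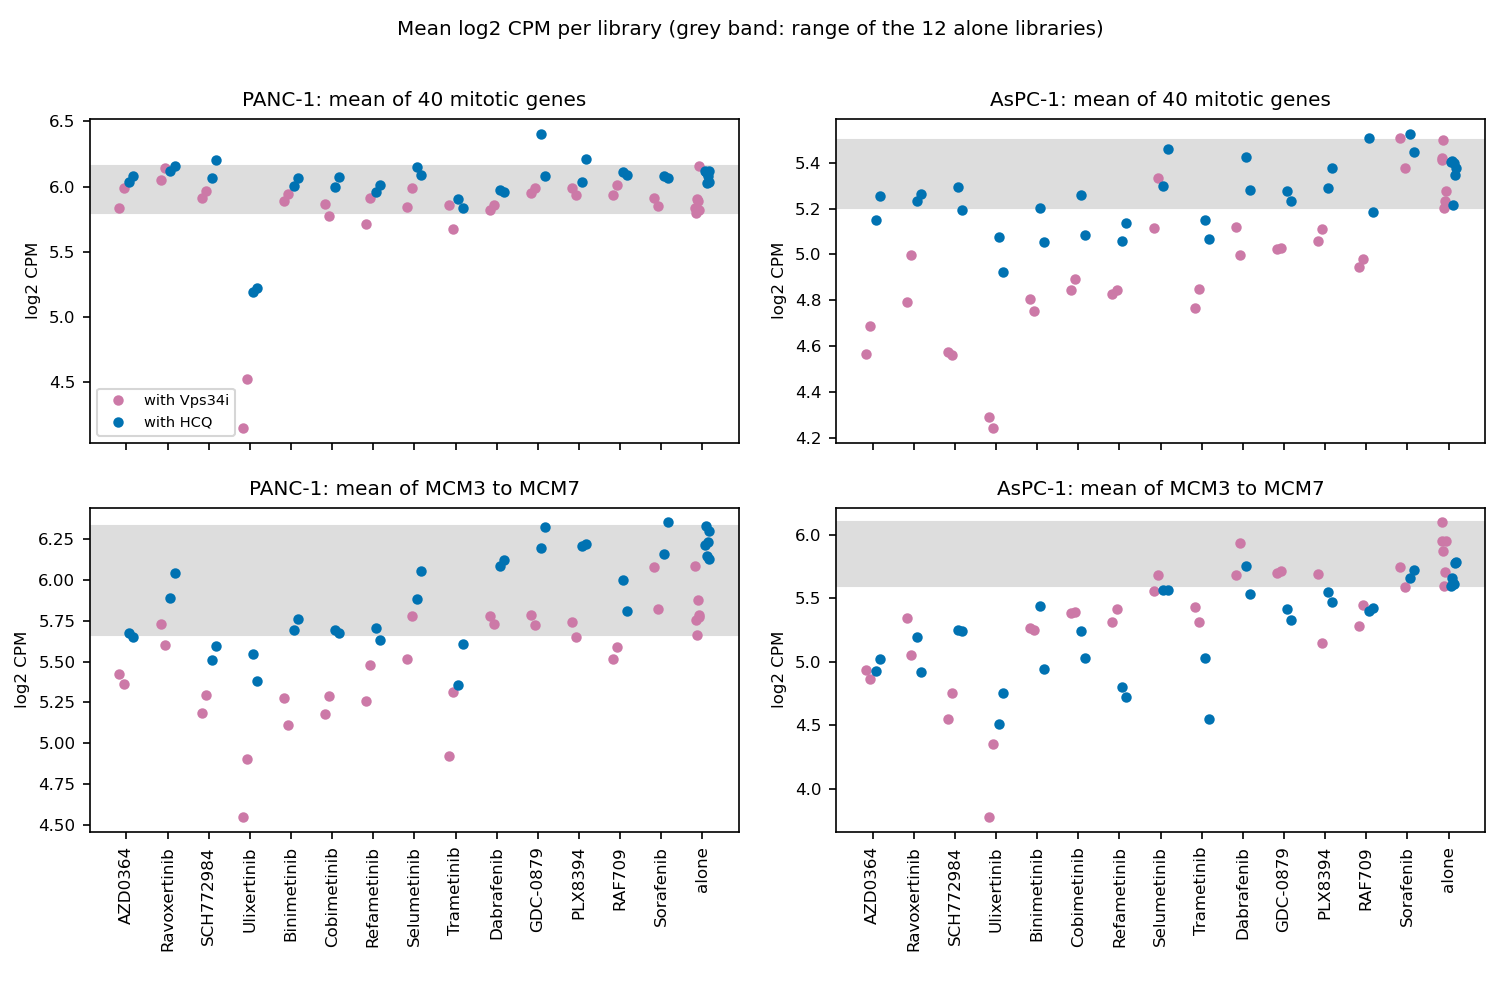
Mean log2 CPM (vertical axis) of the 40 mitotic genes and of MCM3 to MCM7 in every library, by drug, with the autophagy inhibitors alone at the right and their range as a grey band; pink is the Vps34 inhibitor and blue hydroxychloroquine. In PANC-1 the ulixertinib libraries lie at 4.15 to 5.22 in the mitotic panel, below the band of 5.8 to 6.16.

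Set directly against the MCM mean of its own library, the change of most genes is positive wherever the MCM genes fell, so the share of all genes is the base line. With MEK inhibitors in PANC-1, 35 mitotic genes were higher than the MCM mean change and 1, HJURP, was lower (limma, adjusted p under 0.05), against 75.0% and 1.53% of all genes. With SCH772984, 36 of 40 were higher (63.9% of all genes). With ulixertinib, 1 was higher, BUB3, and 17 were lower, against 79.7% and 0.744% of all genes. KIF20A fell by 0.88 ± 0.17 more than the MCM mean with ulixertinib (limma, adjusted p = 1.1e-05), and AURKB by 0.82 ± 0.15. With ERK inhibitors as a class in PANC-1, 26 of 40 were higher (76.6% of all genes). In AsPC-1, 30 of 40 were higher with ERK inhibitors (83.7% of all genes) and 11 of 40 with MEK inhibitors (58.7% of all genes).

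In AsPC-1 both ERK and MEK inhibitors lowered mitotic genes along with the MCM genes. ERK inhibitors lowered 29 of the 40 and raised none, against 17.4% and 13.7% of all genes, with a median of -0.50 for them, -0.06 for all genes and -0.91 for MCM3 to MCM7. MEK inhibitors lowered 20 and raised none, against 16.1% and 12.9% of all genes, with a median of -0.33 against -0.05 for all genes and -0.52 for the MCM genes. All 5 MCM genes were called lower with both classes. Within plate B alone 12 mitotic genes were called lower with ERK inhibitors and 7 with MEK inhibitors, and within plate A 24 with ERK and 12 with MEK inhibitors.

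Among the cyclins and entry kinases, CDK1 had 47.2 to 114.8 CPM (median 78.9) with ERK inhibitors, 67.2 to 144.3 CPM (median 88.5) with MEK inhibitors and 103.3 to 148.6 CPM (median 128.7) with the autophagy inhibitors alone. The ranges overlapped, and 14 of 16 ERK and 16 of 20 MEK inhibitor libraries lay below all 12. Its log2 fold changes were -0.78 ± 0.07 with ERK inhibitors (edgeR adjusted p = 2e-13) and -0.50 ± 0.07 with MEK inhibitors (edgeR adjusted p = 3.03e-08). CCNB1 fell by 0.52 with ERK and 0.45 with MEK inhibitors, and CCNA2 by 0.53 with ERK and 0.45 with MEK inhibitors. AURKA, the kinase of the spindle poles, fell by 0.43 with ERK and 0.33 with MEK inhibitors. The other 4 of these 8 genes did not pass with either class: CCNB2, cyclin B2, was at -0.24 with both, CDC25C, the phosphatase that activates CDK1, at -0.29 with ERK and -0.26 with MEK inhibitors, PLK1 at -0.29 and -0.30, and FOXM1 at -0.55 and -0.34, in the same order of classes.

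Of the 7 checkpoint and anaphase-promoting complex genes, 7 fell with ERK inhibitors and 5 with MEK inhibitors. CDC20 had 7.4 to 63.1 CPM (median 25.7) with ERK inhibitors, 13.8 to 46.2 CPM (median 26.4) with MEK inhibitors and 32.1 to 72.7 CPM (median 48.5) with the autophagy inhibitors alone. The ranges overlapped, with 11 of 16 ERK and 13 of 20 MEK inhibitor libraries below all 12. It fell by 0.80 ± 0.11 with ERK inhibitors and by 0.78 ± 0.11 with MEK inhibitors (edgeR adjusted p = 2.44e-08). UBE2C, the ubiquitin-conjugating partner of that complex, fell by 0.76 with ERK and 0.62 with MEK inhibitors. MAD2L1 fell by 0.81 ± 0.10 with ERK inhibitors, with 7 of 16 libraries below all 12. BUB1B and TTK, kinases of the checkpoint, were at -0.41 and -0.32 with ERK inhibitors, both called, and at -0.25 and -0.11 with MEK inhibitors, both not called. The difference between the classes was not called for either.

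At the kinetochore, SPC25 had 22.9 to 77.8 CPM (median 54.0) with ERK inhibitors, 41.4 to 83.1 CPM (median 61.6) with MEK inhibitors and 82.7 to 121.4 CPM (median 97.3) with the autophagy inhibitors alone. Of the ERK inhibitor libraries 16 of 16, and of the MEK inhibitor libraries 19 of 20, lay below all 12. Its log2 fold changes were -0.92 ± 0.08 with ERK inhibitors (edgeR adjusted p = 9.91e-15) and -0.64 ± 0.08 with MEK inhibitors (edgeR adjusted p = 3.82e-10). HJURP fell by 0.90 with ERK and 0.62 with MEK inhibitors, NUF2 by 0.77 and 0.42, and NDC80 by 0.46 and 0.33, in the same order. SPC24, the partner of SPC25, did not pass (-0.32 and -0.22).
Both passenger genes fell: AURKB had 3.8 to 21.0 CPM (median 16.1) with ERK inhibitors, 6.1 to 28.6 CPM (median 14.9) with MEK inhibitors and 17.1 to 33.9 CPM (median 23.4) with the autophagy inhibitors alone. The groups overlapped, with 9 of 16 ERK and 14 of 20 MEK inhibitor libraries below all 12. Its changes were -0.99 ± 0.13 (edgeR adjusted p = 1.24e-08) with ERK inhibitors and -0.79 ± 0.12 (edgeR adjusted p = 4.75e-07) with MEK inhibitors, and those of BIRC5 were -0.58 with ERK and -0.47 with MEK inhibitors.

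Of the 13 spindle and cytokinesis genes in AsPC-1, 8 fell with ERK and 4 with MEK inhibitors. KIF11, the motor that pushes the spindle poles apart, fell by 0.62 with ERK and 0.53 with MEK inhibitors, and TPX2, the activator of AURKA on spindle microtubules, by 0.51 and 0.36. KIF23, a kinesin of the central spindle, fell by 0.73 ± 0.16 with ERK and 0.55 ± 0.15 with MEK inhibitors. PRC1, which bundles the central spindle, fell by 0.57 ± 0.18 with ERK inhibitors (edgeR adjusted p = 0.0129). KIF20A had 21.3 to 58.5 CPM (median 41.0) with ERK inhibitors, 23.0 to 63.7 CPM (median 46.0) with MEK inhibitors and 28 to 51.6 CPM (median 36.5) with the autophagy inhibitors alone. Of its ERK inhibitor libraries 3 lay below and 5 above all 12, and of its MEK inhibitor libraries 2 below and 6 above. Its changes were 0.18 ± 0.11 with ERK (edgeR adjusted p = 0.229) and 0.23 ± 0.11 with MEK inhibitors (edgeR adjusted p = 0.102), so it did not pass. NEK2 (-0.08 with ERK and -0.05 with MEK inhibitors) and DLGAP5, a microtubule-binding factor (-0.05 and 0.16), did not pass either. MKI67 fell by 0.68 ± 0.10 with ERK and 0.35 ± 0.10 with MEK inhibitors, and TOP2A by 0.48 ± 0.12 with ERK inhibitors.

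Among single drugs in AsPC-1, ulixertinib lowered 28 mitotic genes (10.9% of all genes lower), at a median of -0.72 against -1.50 for the MCM genes. Binimetinib lowered 19 (7.59%), AZD0364 18 (9.02%), SCH772984 18 (9.04%), cobimetinib 16 (8.09%), refametinib 14 (8.49%) and trametinib 14 (7.6%). Selumetinib lowered 3 (3.64%). Ravoxertinib lowered 8 (7.27%), at a median of -0.30 against -0.67 for the MCM genes, of which 4 were called. Its 8 were CCNB1, CDK1, BUB3, UBE2C, SPC25, HJURP, AURKB and MAD2L1, at -0.46 to -0.83. Leaving out replicates changed single-drug counts by more than 1.5 times for several drugs, for example 8 in place of 19 for binimetinib without the first hydroxychloroquine combination replicate.

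The class changes differed between the lines. As the concentrations are not in the labels, a difference between lines cannot be told apart from one of dose. In a fit of both lines, 11 mitotic genes had a higher log2 fold change with MEK inhibitors in PANC-1 than in AsPC-1 and none a lower one, against 6.08% and 5.29% of all genes. CDC20 was at -0.12 in PANC-1 and -0.78 in AsPC-1, a difference of 0.66 ± 0.12 (PANC-1 minus AsPC-1, edgeR adjusted p = 3.73e-05). CCNB1 was at -0.05 in PANC-1 and -0.45 in AsPC-1, a difference of 0.40 ± 0.08 (edgeR adjusted p = 3.81e-05). With ERK inhibitors 11 were higher and 1 lower (7.49% and 6.41% of all genes). CDK1 was at -0.15 in PANC-1 and -0.78 in AsPC-1 (difference 0.63 ± 0.10), and KIF20A at -0.30 in PANC-1 and 0.18 in AsPC-1 (difference -0.47 ± 0.15). By drug, the counts within the ERK class went different ways. With AZD0364, ravoxertinib and SCH772984, 9, 9 and 8 were higher in PANC-1 and none lower (3.4%, 3.0% and 2.29% of all genes higher). With ulixertinib 8 were lower in PANC-1 and none higher (3.41% and 3.55% of all genes). KIF20A was at -1.82 in PANC-1 and 0.15 in AsPC-1 (difference -1.96 ± 0.24, edgeR adjusted p = 7.83e-10), and NEK2 at -1.56 in PANC-1 and -0.14 in AsPC-1 (difference -1.41 ± 0.20). With ulixertinib in AsPC-1, KIF20A had 21.3, 36.8, 53.1 and 58.1 CPM against 28 to 51.6 CPM, with 2 values above, 1 below and 1 inside that range, and was not called.

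In AsPC-1 the ERK inhibitor effect also differed between the autophagy inhibitors. With the Vps34 inhibitor, ERK inhibitors lowered 31 of the 40 mitotic genes (13.5% of all genes lower), at a median of -0.81. With hydroxychloroquine they lowered 10 (9.18%), at -0.19, and raised KIF20A (0.42 ± 0.16, edgeR adjusted p = 0.0496; 7.99% of all genes higher). The MCM genes fell with both, at medians of -1.11 and -0.79 in that order. The difference between these effects was itself called for 6 mitotic genes, all lower with the Vps34 inhibitor, against 0.188% of all genes lower and 0.125% higher. They were CCNB1, CDK1, MAD2L1, AURKB, NUSAP1 and SPC25, and the median difference over the 40 was -0.60, against -0.05 for all genes. Without ulixertinib, 3 were called (0.118% of all genes), as were 0 of the 5 MCM genes and 1 of 37 other G1/S genes. The median difference was then -0.525 for the mitotic genes, -0.5 for the MCM genes and -0.473 for the other G1/S genes. It was -0.045 for all genes, so the shift was not particular to the mitotic list. Of the 6 named, MAD2L1 and SPC25 were also higher with the Vps34 inhibitor alone than with hydroxychloroquine alone, as given below.

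AURKB had 3.8 to 15.2 CPM (median 7.3) with ERK inhibitors and the Vps34 inhibitor, against 19.4 to 33.9 CPM (median 23.2) with the Vps34 inhibitor alone. With ERK inhibitors and hydroxychloroquine it had 17.0 to 21.0 CPM (median 19.1), against 17.1 to 30.4 CPM (median 23.8) with hydroxychloroquine alone. The groups did not overlap with the Vps34 inhibitor and overlapped widely with hydroxychloroquine, and the difference of the effects was -1.40 ± 0.27 (edgeR adjusted p = 0.00293). CCNB1 had 85.6 to 108.6 CPM (median 97.9) with ERK inhibitors and the Vps34 inhibitor, against 168.9 to 209.3 CPM (median 186.9) with the Vps34 inhibitor alone. With hydroxychloroquine it had 152.8 to 187.7 CPM (median 173.0), against 179.2 to 229.1 CPM (median 184.8). Its difference was -0.71 ± 0.12 (edgeR adjusted p = 0.000318), and that of NUSAP1 was -1.04 ± 0.16 (edgeR adjusted p = 0.000141). Mitochondrial mRNA made up 27.388% to 33.935% of counts with ERK inhibitors and the Vps34 inhibitor, 27.883% to 30.048% with the Vps34 inhibitor alone, 22.785% to 31.059% with ERK inhibitors and hydroxychloroquine, and 23.826% to 27.225% with hydroxychloroquine alone. Its part in the result was not tested.

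**Figure D5:**
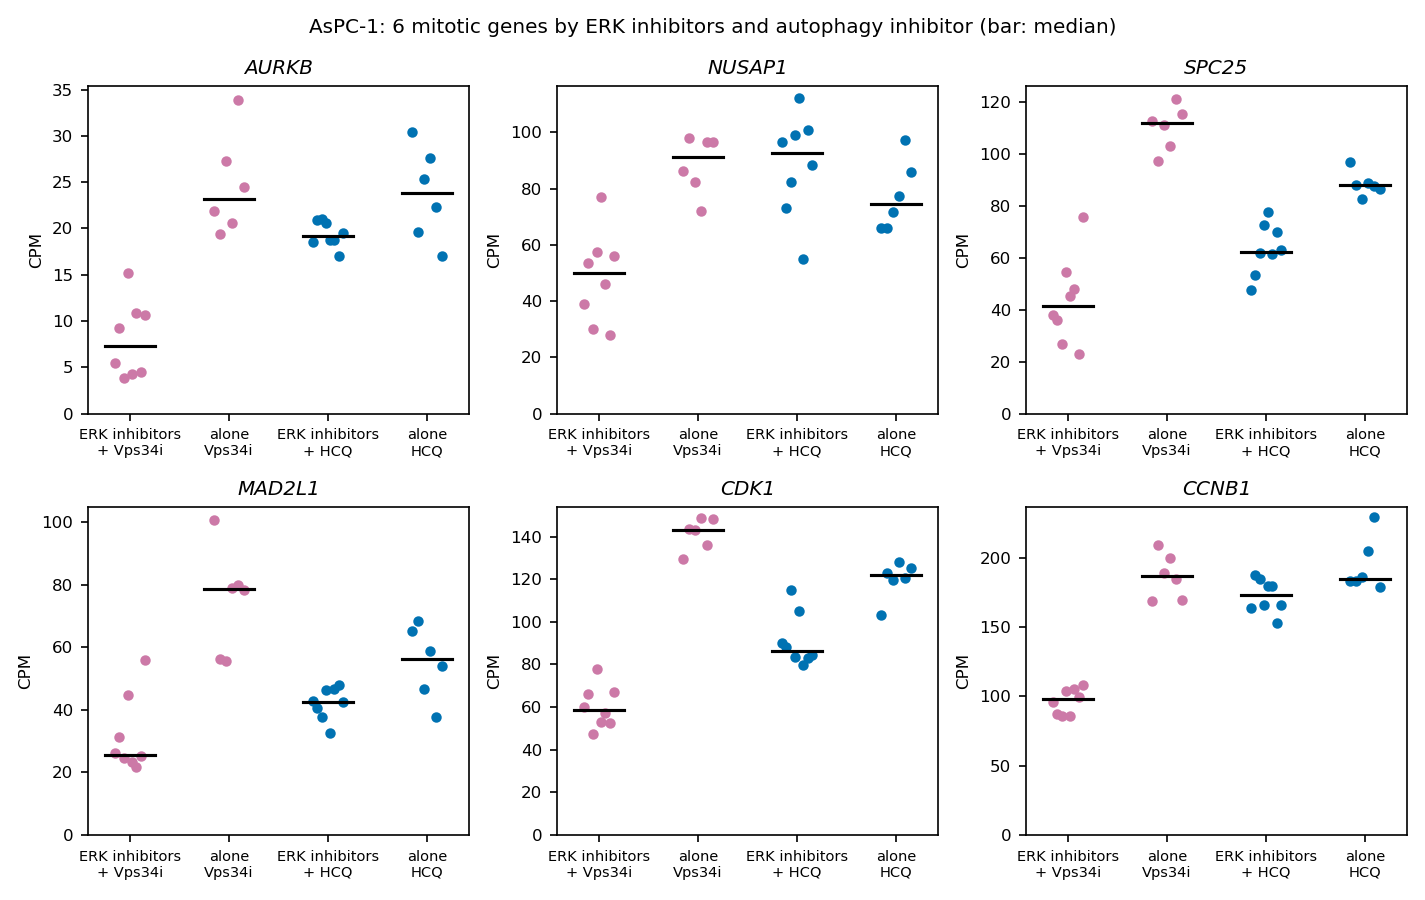
CPM (vertical axes) of 6 mitotic genes in AsPC-1 libraries of the ERK inhibitors with the Vps34 inhibitor (8), the Vps34 inhibitor alone (6), the ERK inhibitors with hydroxychloroquine (8) and hydroxychloroquine alone (6); bars are medians. For AURKB the first group lies at 3.8 to 15.2 CPM, below all other groups, and the third at 17.0 to 21.0 CPM overlaps its reference.

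By drug, ulixertinib lowered 28 mitotic genes with the Vps34 inhibitor and 6 with hydroxychloroquine in AsPC-1 (7.02% and 4.4% of all genes), SCH772984 21 and 1 (6.21% and 2.87%), and AZD0364 20 and 2 (5.6% and 3.91%). AZD0364 with hydroxychloroquine also raised KIF20A (0.73 ± 0.22) and NUSAP1 (0.51 ± 0.17), against 4.84% of all genes. MEK inhibitors lowered 19 with the Vps34 inhibitor and 11 with hydroxychloroquine (10.4% and 9.3% of all genes), and with hydroxychloroquine they raised KIF20A (0.52 ± 0.15, edgeR adjusted p = 0.00923; 8.52% of all genes). Mitochondrial mRNA made up 29.298% to 34.446% of counts with MEK inhibitors and the Vps34 inhibitor, 27.883% to 30.048% with the Vps34 inhibitor alone, 23.15% to 29.712% with MEK inhibitors and hydroxychloroquine, and 23.826% to 27.225% with hydroxychloroquine alone. Its part in these counts was not tested. The difference between the 2 MEK inhibitor effects was called for no mitotic gene, against 0.047% of all genes in each direction (edgeR; 9 lower and 0 higher at an unadjusted p under 0.05; 0 with DESeq2). In PANC-1, ulixertinib lowered 38 with the Vps34 inhibitor and 27 with hydroxychloroquine (4.07% and 3.43% of all genes). The difference for the class was called for none there, nor for any other gene (edgeR; 4 lower at an unadjusted p under 0.05; 0 with DESeq2).
Between the autophagy inhibitors alone, 3 mitotic genes differed in AsPC-1, which is near the shares of all genes. The Vps34 inhibitor gave less CDC20 than hydroxychloroquine (-0.58 ± 0.17, with 2.72% of all genes lower). It gave more MAD2L1 (0.52 ± 0.15) and SPC25 (0.39 ± 0.12), with 3.21% of all genes higher. Leaving out replicates gave 0 to 1 lower and 0 to 2 higher, with none of the 3 called without the third hydroxychloroquine library. In PANC-1 none was called, against 1.18% of all genes lower (edgeR; 15 lower at an unadjusted p under 0.05), and DESeq2 called 3 lower, as did edgeR without the sixth Vps34 inhibitor library.

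ERK inhibitors as a class were also set against MEK inhibitors directly. With the concentrations not in the labels, class and dose cannot be told apart here. In PANC-1, 6 mitotic genes were lower with ERK than with MEK inhibitors, against 1.3% of all genes: KIF20A (-0.40 ± 0.09), TTK (-0.40), NDC80 (-0.39), CCNB2 (-0.34), NEK2 (-0.29) and BUB1B (-0.25). In AsPC-1, 3 were lower, CDK1 (-0.28), NUSAP1 (-0.29) and SPC25 (-0.28), against 0.494% of all genes. Leaving out replicates gave 1 to 6 in PANC-1. It gave 1 without the first Vps34 inhibitor or the first hydroxychloroquine combination replicate, and 2 without the second hydroxychloroquine combination replicate. In AsPC-1 it gave 0 to 3, with 1 or none without any of the 4 combination replicates. Without ulixertinib none was lower in either line (edgeR; 0 in PANC-1 and 4 in AsPC-1 at an unadjusted p under 0.05; 0.396% and 0.157% of all genes). In PANC-1, CDK1 was then higher with ERK than with MEK inhibitors (0.37 ± 0.07, edgeR adjusted p = 0.000856; 0.42% of all genes).

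RAF inhibitors as a class lowered 1 mitotic gene in PANC-1 and 7 in AsPC-1. Of the 8 genes that ERK signalling drives, RAF709 lowered 7 in PANC-1 (median -1.97). Dabrafenib, GDC-0879, PLX8394 and sorafenib lowered 0 of them. Of 9 such genes in AsPC-1, RAF709 lowered 7, GDC-0879 5, dabrafenib 2, and PLX8394 and sorafenib 0. In PANC-1 the class lowered only MAD2L1 and raised none, against 0.436% and 0.103% of all genes, at a median of -0.01 against -0.03 for all genes. MAD2L1 had 40.4 to 71.7 CPM (median 55.5) with RAF inhibitors, against 60.6 to 101.9 CPM (median 73.0) with the autophagy inhibitors alone. The ranges overlapped, with 14 of 20 libraries below all 12, and the change was -0.48 ± 0.09 (edgeR adjusted p = 0.000725). The call was lost within plate A, within plate B and with drugs of a class as replicates (0 genes each), and DESeq2 called 2 lower. Dabrafenib (0.0238% of all genes lower) and GDC-0879 (0.127%) each lowered MAD2L1 alone, and RAF709 (4.42%) lowered MAD2L1 and HJURP (-0.65), with 3 MCM genes called. PLX8394 and sorafenib lowered none (edgeR; 1 gene each at an unadjusted p under 0.05, 0 with DESeq2; 0.0475% and 0.0317% of all genes). GDC-0879 also raised KIF4A, a chromosome-arm kinesin, and TOP2A (0.293% of all genes higher). Its TOP2A values were 206 and 201 CPM with the Vps34 inhibitor and 578 and 196 CPM with hydroxychloroquine, so that 1 library stood apart. Without the first hydroxychloroquine combination replicate, TOP2A was at 0.21 and KIF4A at 0.59, and neither was called.
In AsPC-1 the class lowered 7 of 40 and raised none (4.91% and 3.75% of all genes), at a median of -0.17 against -0.04 for all genes, with MCM7 the 1 MCM gene called. Without the second hydroxychloroquine combination replicate 4 were called, with drugs of a class as replicates 3, and within either plate alone none. SPC25 had 57.9 to 114.8 CPM (median 77.6) with RAF inhibitors, against 82.7 to 121.4 CPM (median 97.3) with the autophagy inhibitors alone, and 14 of 20 libraries lay below all 12. It fell by 0.34 ± 0.08 (edgeR adjusted p = 0.00112). The others were CDK1 (-0.30), CCNA2 (-0.34), CDC20 (-0.35), BUB3 (-0.23), NUF2 (-0.42) and KIF11 (-0.41). RAF709 lowered 8 (6.1%), GDC-0879 5 (5.12%), dabrafenib 1 (1.61%), PLX8394 1 (0.4%) and sorafenib 0 (0.0157%; edgeR; 0 lower and 4 higher at an unadjusted p under 0.05; 0 with DESeq2).

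Other genes of the cell cycle, from lists that hold none of the 40, were counted beside them. The shares of all genes called in each comparison are those given above. Of 56 other G2/M genes, 23 fell and 1 rose with ERK inhibitors in PANC-1 (median -0.33), 8 fell and 1 rose with MEK inhibitors (-0.15), and 48 fell with ulixertinib (-1.15). In AsPC-1, 39 fell with ERK inhibitors (-0.61) and 35 with MEK inhibitors (-0.43). Of 37 other G1/S genes, 23 fell with ERK inhibitors (-0.43), 26 with MEK inhibitors (-0.55) and 27 with ulixertinib (-0.92) in PANC-1. In AsPC-1, 29 fell with ERK and 27 with MEK inhibitors. In PANC-1 the replication factors CHAF1A (-0.69) and FEN1 (-0.64) fell with MEK inhibitors, and so did CDCA5, the cohesin-protecting factor sororin (-0.66). Of 18 regulators of the MuvB, DREAM and E2F family, 3 fell and 2 rose with MEK inhibitors in PANC-1. These shares, 16.7% and 11.1%, were near the 10.6% and 7.9% of all genes. E2F7, a repressor of E2F targets with few counts (average log2 CPM 1.96), fell by 1.29 and MYBL1, A-Myb, rose by 0.60. Of the CDK inhibitors and p53 targets, CDKN1A, which encodes p21, fell by 0.36 with MEK inhibitors in PANC-1 and by 1.07 in AsPC-1, and CDKN1C, which encodes p57, rose by 0.96 in PANC-1.

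Across the 30 treatment means of a line, the genes outside all lists whose log2 CPM followed the mitotic score most closely were SAPCD2 (Pearson r = 0.934), CDKN3 (0.929), TRMU (0.892), KIF20B (0.88) and SPAG5 (0.878) in PANC-1. In AsPC-1 they were TOMM40 (0.917), PKMYT1 (0.911), SAPCD2 (0.889), RPF2 (0.878) and ERFE (0.874). Each of the 40 was set against the mean of the other mitotic genes. BIRC5 followed that mean most closely in PANC-1 (0.975) and FOXM1 least (0.496). In AsPC-1 the ends were HJURP (0.921) and SPC24 (-0.081), with KIF20A at 0.104. These r values describe treatment means that share plates and depth. In PANC-1 they include the ulixertinib means, whose libraries all scored below those of the autophagy inhibitors alone. The weight of these means in r was not tested.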

How the data were processed

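PLATE-Seq libraries of PANC-1 and AsPC-1 cells were analysed from 1 table of raw counts per gene symbol, as deposited by the authors. Reads were quantified with kallisto 0.44.0 against GRCh38, per the submitters' processing notes, while how transcripts were summed to genes, and on which annotation, is not given in the sources used here. Of the 25435 symbols, 4605 had no counts. Near-identical gene copies could not be separated from these counts. Each library was placed in its group by the cell line, the kinase inhibitor, the autophagy inhibitor and the replicate in its labels. All libraries were used, with totals of 1419228 to 5871860 counts, and no column of the table was left unused.

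Each line was fitted separately with edgeR 4.0.16 in R 4.3.3 (filterByExpr, TMM normalization, robust quasi-likelihood fit, 37 residual degrees of freedom) over 30 treatment groups and a plate term, with 12627 genes in PANC-1 and 12761 in AsPC-1. Drug effects were averaged over both autophagy inhibitors, and class effects over drugs. P-values are two-sided and adjusted by the Benjamini-Hochberg method over all genes within a comparison, with a threshold of 0.05. Changes relative to the MCM genes were fitted with limma 3.58.1 on log2 CPM (prior count 2) minus the mean of MCM3 to MCM7 in the library. Lines were compared in a joint edgeR fit of 13960 genes with plate within line. DESeq2 1.42.0 was an alternative. The other alternatives were other normalization and filters, no plate term, single plates, drugs as replicates, another G1/S reference, leaving out replicates and leaving out ulixertinib. Fits of single plates also took drugs as replicates. The edgeR fits that left out replicates kept the trended dispersion of the full fit. The steps were tested on simulated counts.

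The library titles carry a code, PSA or PSB, which was read here as plate A or B. This plate serves as the replicate block. Same-plate deviations of 2 treatments correlated at a median, over 435 pairs, of 0.0544 in PANC-1 and 0.0342 in AsPC-1, and the plate term passed for 2082 and 1604 genes, of which 10 and 8 were mitotic genes. No 2 replicates agreed within sampling noise. The mitotic genes and other lists were chosen with earlier results of these data known. Genes named are those with the lowest adjusted p of each role or list, those that moved against the majority, the MCM genes and, for a full account, other mitotic genes. Python 3.11.15, pandas 2.3.3, numpy 2.4.6 and matplotlib 3.10.9 were used for tables and plots.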

Additional observations from a re-analysis of the deposited data

Results flagged for a closer look

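Tests for a library far from the others were run 12 times, on 3 scores in 4 groups of 6 libraries of an autophagy inhibitor alone. They found 2 such libraries, and chance gives about 1 in 20 tests. In PANC-1, the sixth library with the Vps34 inhibitor alone had the highest mitotic score of its group, at 6.16. Without it, 3 mitotic genes were called lower for the Vps34 inhibitor alone against hydroxychloroquine alone in PANC-1, against none with it (edgeR). In AsPC-1, the third library with hydroxychloroquine alone had the lowest mitotic score of its group, at 5.21.

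Effects that differed between the lines are given as PANC-1 minus AsPC-1 on the log2 scale, each called in the joint edgeR fit. With ulixertinib the differences were -1.96 for KIF20A, -1.41 for NEK2, -1.23 for DLGAP5, -1.08 for CCNB2, -0.93 for BUB1, -0.83 for MKI67, -0.72 for BUB1B and -0.72 for CCNB1. With ERK inhibitors as a class they were -0.47 for KIF20A, 0.24 for BUB3, 0.32 for NUSAP1, 0.32 for CCNA2, 0.33 for CCNB1, 0.37 for BIRC5, 0.40 for TPX2, 0.47 for SPC25, 0.51 for AURKB, 0.53 for CDC20, 0.62 for TOP2A and 0.63 for CDK1. With MEK inhibitors they were 0.36 for SPC25, 0.36 for TPX2, 0.38 for CDK1, 0.40 for CCNB1, 0.44 for UBE2C, 0.48 for BIRC5, 0.55 for AURKB, 0.57 for CENPA, 0.66 for CDC20, 0.69 for KIF4A and 0.70 for KIF23.

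In AsPC-1 the ERK inhibitor effect with the Vps34 inhibitor minus that with hydroxychloroquine was -1.40 for AURKB, -1.04 for NUSAP1, -0.87 for SPC25, -0.85 for MAD2L1, -0.77 for CDK1 and -0.71 for CCNB1.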

How the results depend on the processing

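Of 137 counts of mitotic genes or drugs recomputed under other settings, 104 stayed within 1.5 times the reported count. When replicates were left out, 371 of 416 did so. Most leave-outs kept all libraries of the drugs, and some counts were 0 in every leave-out, so that share was partly fixed by these choices. Where a value moved, the cause was not tested. Fewer libraries entered the fits within single plates, which also treated the drugs of a class as replicates. In PANC-1, plates A and B alone gave 2 and 1 genes lower for ERK, 2 and 1 for MEK and 0 and 0 for RAF inhibitors. In AsPC-1 they gave 12 (plate B) for ERK, 12 and 7 for MEK and 0 and 0 for RAF inhibitors. With drugs of a class as replicates, 4 were lower for ERK, 4 for MEK and 0 for RAF inhibitors in PANC-1, and 3 for RAF inhibitors in AsPC-1. Of the 23 genes averaging a log2 CPM of 5 or more in AsPC-1, 18 were lower with ERK and 12 with MEK inhibitors.

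Without the replicate block (the plate term), 18 in place of 21 were lower with ERK and 7 in place of 9 with MEK inhibitors in PANC-1. In AsPC-1, it gave 0 for ERK against MEK inhibitors, 1 higher with the Vps34 inhibitor alone and 1 above the MCM mean change with RAF inhibitors. It moved no other count by over 1.5 times. No filter on low counts gave 1 for ERK against MEK inhibitors and 1 higher with the Vps34 inhibitor alone in AsPC-1. DESeq2 gave 2 lower with RAF inhibitors and 3 with the Vps34 inhibitor alone in PANC-1, and its size factors gave 1 for the Vps34 inhibitor alone and 7 higher in PANC-1 than in AsPC-1 with ERK inhibitors. With other G1/S genes as reference, 12 in place of 26 were above it with ERK inhibitors and 1 with RAF inhibitors in PANC-1, and 6 with RAF inhibitors in AsPC-1.

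Without ulixertinib, ERK inhibitors lowered 3 genes in PANC-1, the ERK inhibitor effect differed between the autophagy inhibitors for 3 in AsPC-1, and ERK against MEK inhibitors gave 0 in both lines. In PANC-1 the changes with ERK inhibitors were then 0.06 for BIRC5, 0.15 for CCNB1, 0.11 for CCNB2, 0.21 for KIF20A and 0.05 for KIF2C. ERK against MEK inhibitors gave 0.05 for BUB1B, 0.06 for CCNB2, 0.10 for KIF20A, 0.03 for NDC80 and 0.17 for NEK2. Within plate B, KIF20A was at 0.09 with ERK inhibitors.

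When replicates were left out in PANC-1, ERK inhibitors lowered 17 to 22, MEK inhibitors 6 to 9 and RAF inhibitors 1 to 1. The genes above the MCM mean change were 18 to 28 with ERK, 33 to 36 with MEK and 0 to 2 with RAF inhibitors. ERK against MEK inhibitors gave 1 to 6, the Vps34 inhibitor alone 0 to 3 lower, and 2 to 4 drugs met the rule. In AsPC-1, ERK inhibitors lowered 24 to 29, MEK inhibitors 18 to 25 and RAF inhibitors 4 to 7, and those above the MCM mean change were 27 to 31, 6 to 14 and 0 to 4 in that order. ERK against MEK inhibitors gave 0 to 3, the Vps34 inhibitor alone 0 to 1 lower and 0 to 2 higher, the difference between autophagy inhibitors 5 to 6, and 0 to 1 drugs met the rule. A drug had 4 libraries in a line, which limits what single-drug counts can show, and genes with few counts, such as FOXM1, carried wide errors.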
